A study of Mus musculus with 12 samples.

Results

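AG1478 is a small-molecule tyrosine kinase inhibitor directed at EGFR, the receptor for epidermal growth factor. Gene expression after AG1478 was measured in cultured primary keratinocytes, the cells that build the epidermis, from FVB/N mice that carry the MT-HGF transgene. The 3 arrays titled as AG1478-treated MT-HGF keratinocytes were set against the 3 arrays titled as MT-HGF control, which makes 6 of the 12 arrays of the series. They were chosen by title alone, and no measured value entered the choice. Of 19938 genes named by a single symbol, 15868 passed a filter on low values and were tested. The other 6 arrays held wild-type FVB/N keratinocytes and wild-type keratinocytes that had received v-rasHa, the viral Hras oncogene, with 3 arrays each. They serve here as reference levels.

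The MT-HGF transgene makes cells produce hepatocyte growth factor (HGF) from a metallothionein promoter, so a mouse of this line carries HGF outside its normal sites of expression. Per the labels, untreated MT-HGF cells were grown in regular medium with no starvation and their RNA was purified with Trizol and a Qiagen column. A note on RAS transduction for 3 days stands on all 9 arrays of this earlier submission, and the sources used here do not say how its control cells were handled then. The treated cells were mock transduced MT-HGF cells kept in 8% FBS and exposed to AG1478 for 24 h, with RNA taken by Trizol alone, and their arrays were submitted later. No vehicle-treated array of the later submission was analysed here, and the sources used here do not state the AG1478 concentration. AG1478, its vehicle, mock transduction, medium, RNA purification and submission therefore cannot be told apart in any difference reported here. The untreated samples are labelled biological replicates and the treated ones only as replicates, so p-values measure the spread between arrays, which may be technical.

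EGFR is activated by a family of growth factors that keratinocytes make themselves as membrane-bound precursors, and proteases of the ADAM family release these ligands from the cell surface. The activated receptor signals through RAS and the kinase ERK, which switch on transcription factors, more EGFR ligands and phosphatases that feed back on ERK. HGF acts on a different receptor tyrosine kinase, MET, which uses many of the same downstream proteins. In the epidermis EGFR signalling keeps basal keratinocytes dividing and restrains the step into the spinous layer, where cells switch from the keratins Krt5 and Krt14 to Krt1 and Krt10. The ATF4 pathway is a separate response that raises amino acid uptake and synthesis when protein synthesis outruns its supplies.

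Values are log2 expression levels made by the authors with RMA, and a difference of 1 is a 2-fold change. Array medians lay between 6.77 and 6.84. Each array's background was taken as the 95th percentile of its 161 chemosensory receptor genes, which keratinocytes are not known to use. It averaged 6.94 over the untreated arrays of the series and 7.14 over the treated ones. Genes with an adjusted p under 0.05 were called, and where its lower group lay at or below background on all 3 arrays its difference is given as a bound. Hgf checked the labels. It read 10.59, 10.72 and 10.73 on the untreated arrays and 10.77, 10.80 and 10.66 on the treated arrays, against a wild-type mean of 4.91. Both MT-HGF groups thus carried the transgene's message at overlapping levels, with a difference of 0.06 (SE 0.0946, adjusted p = 0.688, limma). Krt5 and Krt14, which define basal keratinocytes, averaged 13.38 and 12.88 in untreated cells and 13.48 and 12.99 in treated cells. Not all keratinocyte markers were as steady. Of 21 measured, 3 were called higher and 7 lower, which is 47.6% called against 16.5% of all genes tested. The count higher was 1 without untreated replicate 3 or treated replicate 2, and the count lower was 6 with any 1 array left out.

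Markers of other cell types were at like levels in both groups. The mean of 19 fibroblast markers lay at 8.44 to 8.53 on untreated and 8.43 to 8.51 on treated arrays. Of these markers 1 was called higher and 2 lower (15.8% called, against 16.5% of all genes tested). The count lower was 0 without untreated replicate 3 or treated replicate 2. The mean of 18 melanocyte markers lay at 8.86 to 9.01 and 8.85 to 8.94. Of these 1 was called higher and 0 lower (5.56% called), and 0 were higher without untreated replicate 1 or 2 or treated replicate 1 or 2. Under the shift of arrays 0 fibroblast and 0 melanocyte markers were higher, and 2 and 1 were lower. The pigment cell genes Tyrp1 and Dct were abundant, at 12.14 and 11.54 in untreated and 12.09 and 11.51 in treated cells. Of 12 leukocyte markers 11 lay at background in both groups, Ptprc among them, and so did 9 of 11 endothelial markers, Pecam1 and Cdh5 among them.

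After AG1478, 2615 of 15868 genes were called (16.5%), 1043 higher (6.57%) and 1572 lower (9.91%). In 162 of these rises and 51 of these falls both groups lay at or below background on all arrays. In a further 45 rises and 114 falls only the lower group did. The largest rises included those of the spinous keratins Krt1 and Krt10 and of several enzymes and secreted proteins of differentiating epidermis. The falls took in EGFR ligands, ERK feedback genes, the Lce3 cornified envelope genes and nearly all measured members of the ATF4 list. Most changes were small, since 82.6% of the rises and 83.1% of the falls were under 1.5-fold. Rises of at least 2-fold numbered 58 (0.366%) and falls of at least 2-fold 47 (0.296%). The 3 treated and 3 untreated arrays did not overlap for 5420 genes (34.2%). The median difference over all genes was 0.02. The split between directions depended on the level set for each array. With each array shifted so that the chemosensory receptor genes had the same median, the counts were 446 higher and 2269 lower, so that rises made up 16.4% of the called genes in place of 39.9%. Without untreated replicate 2 the count of rises was 683.

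Of the 10 EGFR family ligands listed 8 were measured. Of these 6 fell and 0 rose (75% called, against 16.5% of all genes tested), with a median difference of -0.65. Areg was not analysed here. Ereg, which encodes epiregulin, stood at 9.84, 9.96 and 9.92 on the untreated arrays and 8.55, 8.25 and 7.95 on the treated arrays. All treated arrays lay below all untreated arrays, and close to the wild-type mean of 8.20. The difference was -1.66 (SE 0.112, adjusted p = 3.6e-08), a 3.15-fold lower level. Hbegf, the heparin-binding ligand, read 11.29, 11.35 and 11.18 before and 9.96, 9.88 and 9.28 after treatment. Treated replicate 3 was the lowest, the groups did not overlap, and the level fell 2.96-fold (adjusted p = 4.07e-07) to a value still above the wild-type mean of 9.02. Btc, which encodes betacellulin, stood at 7.83, 7.92 and 8.01 in untreated cells and at background in all treated arrays, so the fall was at least 1.72-fold.

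The 3 other ligands that fell did so by less. Tgfa, the ligand TGF-alpha, read 10.46, 10.48 and 10.52 on untreated and 9.86, 9.97 and 9.84 on treated arrays, a difference of -0.60 (adjusted p = 3.09e-05). The treated level remained 1.71 above wild type. Epgn, which encodes epigen, went from 11.94, 11.92 and 11.84 to 11.11, 11.24 and 11.22 and ended 0.45 under wild type, with an AG1478-minus-wild-type difference of -0.45 (adjusted p = 1.8e-05). Nrg1, the neuregulin that binds ERBB3 and ERBB4, fell by 0.49. Egf lay at background in both groups and Nrg2 differed by -0.03 with adjusted p = 0.849.

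The receptors moved little. Egfr itself read 10.24, 10.15 and 10.18 on untreated and 10.37, 10.36 and 10.13 on treated arrays, and the groups overlapped (0.10, adjusted p = 0.4). Among 22 receptors and regulators 4 were higher and 2 lower (27.3% called, against 16.5% of all genes tested). Without untreated replicate 1 or 2 or treated replicate 3, 1 was lower. Erbb2, the coreceptor without a ligand of its own, was at 9.69, 9.68 and 9.66 untreated and 10.11, 10.25 and 10.12 treated, a rise of 0.48 (adjusted p = 5.35e-05). Erbb3 rose by 0.33 and the docking protein gene Gab1 by 0.55. The feedback inhibitor Lrig1 fell by 0.39, whereas Errfi1, another inhibitor of the receptor, differed by -0.17 with adjusted p = 0.163. Under the shift of arrays to one chemosensory median 2 of the 4 rises were called, and those of Erbb3 (adjusted p = 0.119) and Lrig3 (adjusted p = 0.0659) were not.

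Of 14 genes for ligand shedding 3 were higher and 1 lower (28.6% called, against 16.5% of all genes tested). Timp3, an inhibitor of metalloproteases, rose from 9.82, 9.89 and 9.94 to 10.37, 10.44 and 10.65, well under the wild-type mean of 12.15. Adam15 rose by 0.38 and Adam9 fell by 0.35. In the HGF and MET pathway 1 of 18 genes was higher and 4 were lower (27.8% called). Met, the HGF receptor, read 9.87, 9.92 and 10.02 untreated and 9.65, 9.68 and 9.38 treated, a fall of 0.37 (adjusted p = 0.00505) to near the wild-type mean of 9.59. Mst1r, a receptor related to MET, fell by 0.35 and Cd44, which presents growth factors at the cell surface, by 0.33.

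The 41 genes of the ERK response and feedback list were all measured. Of them 23 were lower and 5 higher (68.3% called, against 16.5% of all genes tested), with a median of -0.25. With single arrays left out 17 to 22 were lower, the 17 without untreated replicate 3. Among the lower were several phosphatases that remove the activating phosphates of ERK. Dusp6 went from 10.47, 10.49 and 10.39 to 9.55, 9.25 and 9.11. The treated arrays all lay below the untreated ones (difference -1.14, SE 0.0956, adjusted p = 3.67e-07). They also lay below the wild-type mean of 9.59 (difference -0.28, adjusted p = 0.0253), though treated and wild-type arrays overlapped. Dusp4 went from 9.05, 9.12 and 9.29 to 8.15, 7.98 and 7.89, beside a wild-type mean of 7.98. Dusp5 went from 10.15, 10.21 and 10.21 to 9.47, 9.42 and 9.50, and stayed 0.87 above wild type. Spry2, which encodes an inhibitor of receptor signalling to RAS, fell by 0.59.

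Transcription factors downstream of ERK fell as well. The ETS family genes Etv5 and Etv4 fell by 1.02 and 0.78, Etv5 from 8.33, 8.39 and 8.50 to 7.31, 7.28 and 7.57. Fos stood at 8.66, 8.73 and 8.68 before and 7.61, 7.66 and 7.67 after (difference -1.04, adjusted p = 3.57e-08). Fosl1, another AP-1 subunit, fell by 0.60, and Plaur, the receptor of urokinase, by 0.88. Not every gene of the list followed. Egr3 rose by 0.41, Epha4 by 0.39, Jun by 0.39 and Ets2 by 0.36, while Egr1 differed by -0.24 (adjusted p = 0.0615) and Myc by -0.07 (adjusted p = 0.584). Ccnd1, the cyclin of early G1, fell by 0.41. Under the shift of arrays 3 of the list's 5 rises were still called, and the calls for Jun (adjusted p = 0.0674) and Bmp2 (adjusted p = 0.149) were lost. Bmp2 lay at background in both groups.

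**Figure D1:**
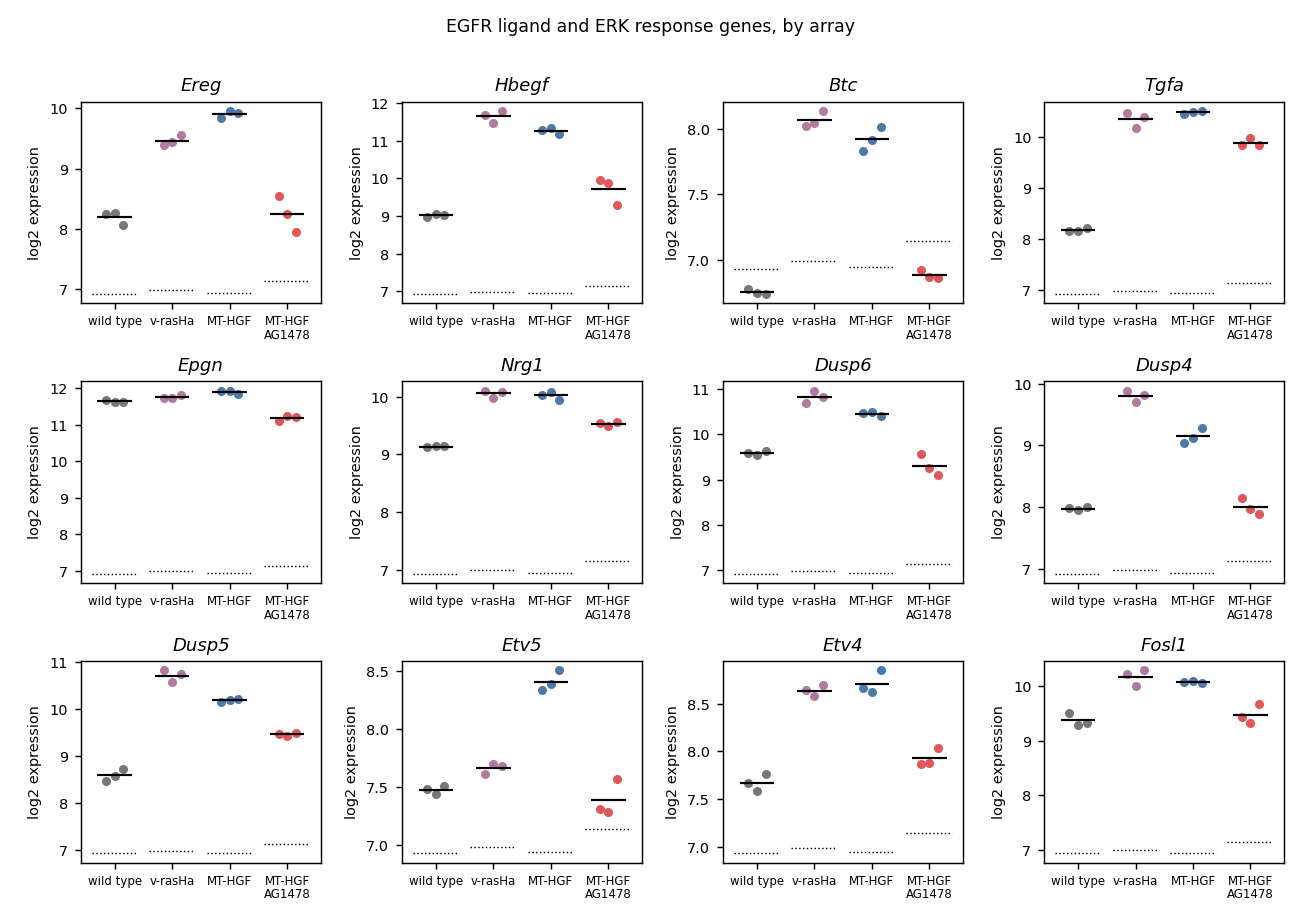
Log2 expression (vertical axes, 1 scale per panel) of 6 EGFR family ligand genes and 6 ERK response genes on each of the 12 arrays, by group along the horizontal axes. Nrg1 is 1 of the 6 and binds ERBB3 and ERBB4. Points are arrays, solid bars group means and dotted bars the mean background of the group. In each panel the 3 treated MT-HGF arrays lie below the 3 untreated ones, and Btc reaches background.

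The promoter of Dusp5 is shown because it holds the CArG box, the sequence bound by serum response factor, whose partners are ETS proteins phosphorylated by ERK. Among 15 fallen ERK genes with a promoter in the RefSeq table, 2 held a CArG box on either strand within the 250 bases before the start (13.3%), against 1.41% of the 12496 tested genes with a promoter. The AP-1 element TGACTCA was found in 3 of the 15 (20%), against 4.55% of all, and the ETS core CCGGAAGT in 0, against 5.37%. These are 3 of 9 motifs searched, and they were picked for display after values were seen. The list was chosen for ERK response, so its shares can differ from those of all genes whether or not its members fell. Dusp5 had 2 adjoining CArG matches, from 82 to 63 bases before its start. They lie on the plus strand of GRCm38.p6 within chr19:53529037-53529108, shown 5′ to 3′ with the matches in capitals. The letters describe the sequence and show no binding.
Dusp5: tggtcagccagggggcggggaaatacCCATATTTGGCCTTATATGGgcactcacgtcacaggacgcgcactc

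Krt1 had the largest rise of all genes tested, and Krt10 was also among the 12 largest. Krt1, a keratin of the spinous layer, stood at 7.93, 8.04 and 8.23 on the untreated arrays and at 12.87, 12.91 and 12.75 on the treated arrays. The rise of 4.78 (SE 0.13, adjusted p = 5.2e-13) was 27.4-fold and took Krt1 to a level 0.82 above wild type. Krt10, its partner in the keratin filament, rose from 7.39, 7.22 and 7.34 to 10.11, 10.44 and 10.15. That is a 7.54-fold higher level (SE 0.132 on the log2 scale, adjusted p = 3.11e-10), and it remained under the wild-type mean of 10.63 (difference -0.40, adjusted p = 0.022). Cells with v-rasHa had Krt1 at 10.68 and Krt10 at 8.99. In RNA of a whole culture, fewer cells of a type and less RNA per cell cannot be told apart.

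Against wild type, where 16.8% of all genes tested were higher in treated MT-HGF cells and 26.2% lower, 11 of the 12 largest rises were higher and Krt10 alone was lower. The 12 were picked for high values on these same treated arrays, so this count is no independent evidence. Them5, an acyl-CoA thioesterase gene, went from 7.90, 8.31 and 8.41 to 12.09, 12.14 and 12.04 (difference 3.89, adjusted p = 2.57e-10), beside a wild-type mean of 10.05. Dapl1, a gene of differentiating epithelia, went from 6.84, 7.22 and 7.25 to 9.76, 10.10 and 10.38, beside 7.78 in wild type. Both genes thus ended above the wild-type level by 2.04 and 2.30. Pou2f3, a POU transcription factor of suprabasal keratinocytes, was at background in untreated cells and at 8.93, 9.04 and 9.28 after treatment, so its rise was at least 4.4-fold.

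The remaining large rises were of enzymes and secreted proteins. Chil1, a chitinase-like secreted protein gene, went from 9.18, 9.29 and 9.30 to 11.82, 11.56 and 11.80 (difference 2.47, adjusted p = 4.2e-11), the highest level of the 4 groups. Il18, a cytokine of the interleukin 1 family, rose 3.83-fold (adjusted p = 9.79e-09) to 8.67, 8.95 and 8.58, with all untreated arrays lower, down to 6.57. Klk14, a kallikrein protease gene, rose by 1.86, Orm1, an acute phase protein gene, by 1.84 and the aldehyde oxidase gene Aox4 by 2.01. The chloride channel regulator Clca3a2 and the gasdermin Gsdmc were at background in untreated cells, and rose at least 3.14-fold and 2.47-fold.

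**Figure D2:**
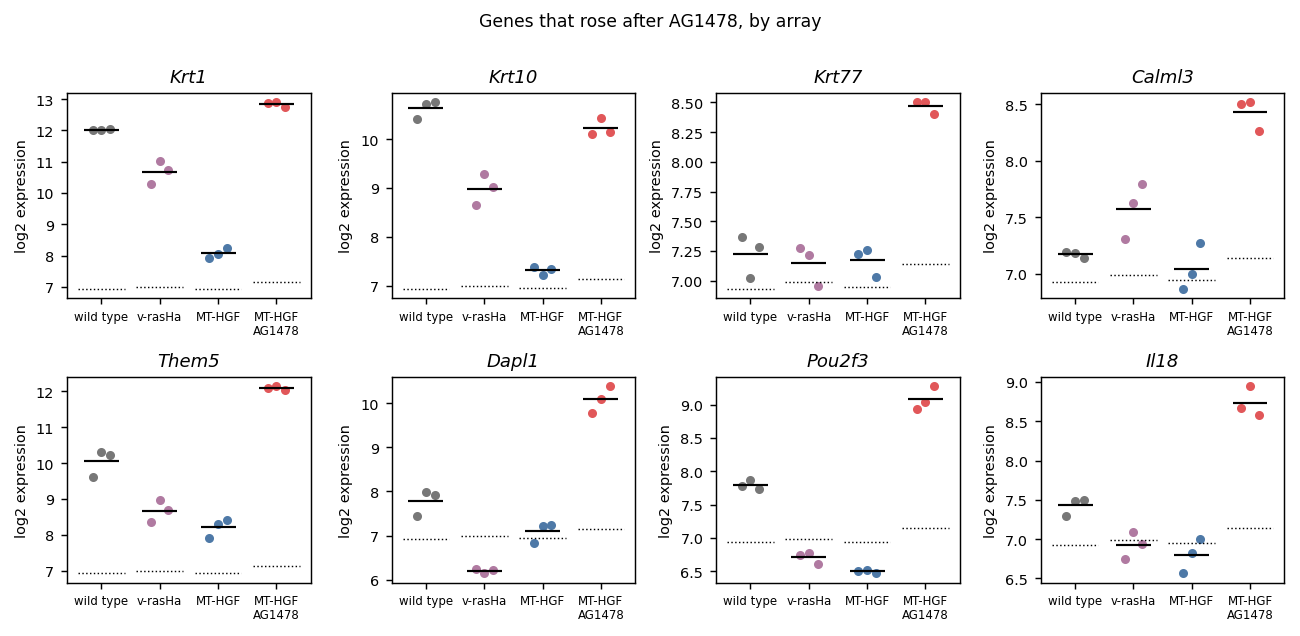
Log2 expression (vertical axes, 1 scale per panel) of 8 genes that rose after AG1478, on each of the 12 arrays by group (horizontal axes). Points are arrays, solid bars group means and dotted bars the mean background of the group. The 3 treated arrays lie above all 3 untreated arrays in each panel, and Krt10 is the gene whose treated mean lies below the wild-type mean.

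In the spinous list 7 of 18 measured genes were higher and 2 lower (50% called, against 16.5% of all genes), with a median of 0.14. Krt77, a keratin of suprabasal cells, rose by 1.30 and the calmodulin-like gene Calml3 by 1.38. Calml3 lay between 6.87 and 7.27 before and at 8.50, 8.52 and 8.26 after treatment, with groups apart. Other spinous genes went down. The desmosomal cadherin Dsc2 went from 11.13, 11.25 and 11.34 to 10.45, 10.46 and 10.13 (difference -0.90, adjusted p = 3.22e-06), and Ivl, which encodes the envelope protein involucrin, from 12.31, 12.33 and 12.35 to 11.61, 11.60 and 11.85. The treated Ivl mean differed from wild type by 0.10 (adjusted p = 0.3), and Krtdap, another spinous gene, differed from untreated cells by 0.14 with adjusted p = 0.359.

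The granular and cornified list held 11 higher and 13 lower genes of 47 (51.1% called, against 16.5% of all genes). Its median was -0.11. Its largest rises were of large filament-binding proteins of the S100 fused type and of enzymes that crosslink the envelope. Tchh, which encodes trichohyalin, stood at 7.73, 7.74 and 7.70 before and 9.28, 9.37 and 9.13 after (difference 1.54, adjusted p = 2.57e-10). Rptn, for repetin, rose by 1.04 and Hrnr, for hornerin, by 0.90. The transglutaminases Tgm3 and Tgm5 rose by 0.97 and 0.86. The falls were led by Alox12b, a lipoxygenase gene of the lipid barrier, from 10.32, 10.55 and 10.82 to 9.68, 9.57 and 9.78. The ceramide enzyme gene Ugcg fell by 0.62, and Lce1i and Lce1g fell by 0.75 and 0.70. Loricrin (Lor) had a difference of 0.45 at adjusted p = 0.0469 with overlapping groups, and that call was lost without untreated replicate 1 or 2 or treated replicate 1 or 2 (highest adjusted p = 0.19).

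Regulators of epidermal differentiation moved both ways, with 11 of 30 higher and 4 lower (50% called, against 16.5% of all genes). Their median was 0.15. The Id genes, inhibitors of helix-loop-helix factors, rose together. Id1 went from 8.60, 8.77 and 8.73 to 9.50, 9.63 and 9.37, beside a wild-type mean of 9.49, and Id2 and Id3 rose by 0.70 and 0.47. Ahr, the aryl hydrocarbon receptor, rose by 0.46 and Tfap2b by 0.42. Prdm1 and Grhl3, transcription factors of late differentiation, fell by 0.45 and 0.35, and Ppard by 0.44. In the hair follicle and sebaceous list 9 of 24 were higher and 3 lower (50% called). Hoxc13, a hair keratin regulator, rose by 0.85, Foxn1 by 0.55 and the vitamin D receptor Vdr by 0.44, whereas the lipid droplet gene Plin2 fell by 0.74 and Krt75 by 0.72.

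The stress-type cornified and wound list comprised 32 measured genes. Of these 17 fell and 7 rose (75% called, against 16.5% of all genes tested), with a median of -0.30. The fall was steepest in the Lce3 family, late cornified envelope genes that wounded and inflamed skin turns on. All 5 measured Lce3 genes fell, a grouping picked after values were seen. Lce3a went from 9.46, 9.81 and 10.21 to 7.35, 7.48 and 7.38, with groups far apart (difference -2.42, SE 0.165, adjusted p = 3.74e-08). Lce3f went from 9.36, 10.04 and 10.22 to 7.68, 7.70 and 7.16, and Lce3e from 10.94, 11.38 and 11.57 to 9.46, 9.73 and 9.51. Lce3c fell by 0.98, the least of the family, and the treated levels of Lce3a, Lce3b, Lce3c, Lce3e and Lce3f all remained above wild type, by 0.79 to 2.62. Probes of near-identical family members can share signal, so single Lce3, Sprr2 and Prl genes are uncertain.

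The small proline-rich Sprr genes, precursors of the same envelope, did not move as 1 group. They too were grouped after values were seen. Of 13 genes 8 fell and 2 rose (76.9% called, against 16.5% of all genes tested). With single arrays left out 6 to 9 fell. Sprr2g went from 11.04, 11.37 and 11.51 to 10.09, 10.09 and 10.06, and Sprr2f fell by 1.22. Sprr2b moved in the opposite direction, from between 8.82 and 9.16 to 10.53, 10.41 and 10.49 (difference 1.48, adjusted p = 9.4e-09), and its treated level lay 1.58 above wild type. The rise of Sprr4 (0.37, adjusted p = 0.0455) was lost without untreated replicate 1 or 2 or treated replicate 2 or 3 (highest adjusted p = 0.208).

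Defence genes of keratinocytes were also split. Defb14, a beta-defensin gene, stood at 9.89, 10.42 and 10.60 untreated and 8.37, 8.29 and 8.63 treated (difference -1.88, adjusted p = 1.35e-07). The defensin genes Defb3 and Defb4 moved the other way and rose by 0.67 and 0.65. S100a8, a subunit of calprotectin, fell from 10.61, 10.61 and 10.62 to 10.05, 9.79 and 9.69. Lcn2, an iron-sequestering lipocalin gene, rose from 7.76, 7.68 and 7.76 to 9.16, 8.91 and 9.42, beside a wild-type mean of 6.16 (difference 1.43, adjusted p = 3.94e-08). The cystatin gene Stfa3 rose by 1.05. The wound keratin Krt6a differed by 0.12 (adjusted p = 0.249) and Krt16 by 0.27, a call lost under the shift of arrays (adjusted p = 0.0961).

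**Figure D3:**
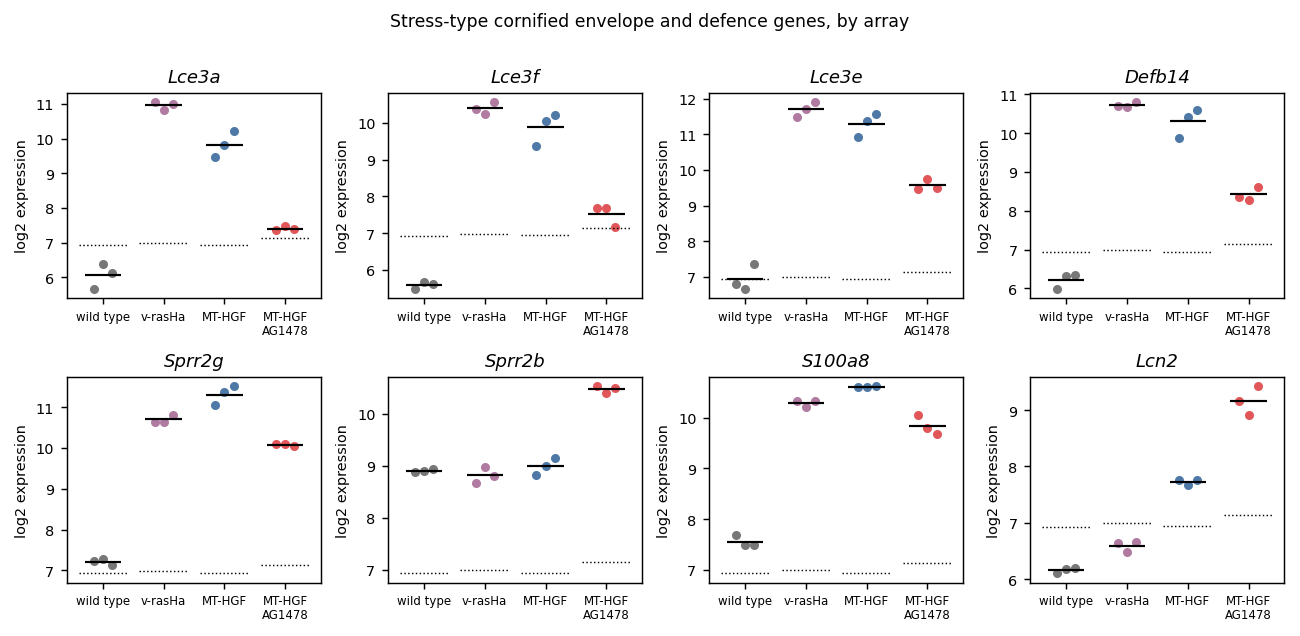
Log2 expression (vertical axes, 1 scale per panel) of 8 stress-type cornified envelope and defence genes on each of the 12 arrays by group (horizontal axes). Points are arrays, solid bars group means and dotted bars the mean background of the group. The treated arrays lie below the untreated ones for Lce3a, Lce3f, Lce3e, Defb14, Sprr2g and S100a8, and above them for Sprr2b and Lcn2.

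The ATF4 and amino acid list had the highest share of called members among the 38 lists. Of 35 measured genes 32 were lower and 0 higher (91.4% called, against 16.5% of all genes tested), with a median of -0.55. With any 1 of the 6 arrays left out 31 were lower. Cth, which makes cysteine from cystathionine, stood at 10.09, 9.91 and 9.83 untreated and 8.25, 8.28 and 8.09 treated. The groups were far apart (difference -1.73, SE 0.0818, adjusted p = 5.51e-10), and the treated mean lay 0.34 under wild type. Enzymes of mitochondrial folate metabolism fell, Aldh1l2 from 9.75, 9.64 and 9.65 to 8.24, 8.20 and 8.15 and Mthfd2 from 11.24, 10.93 and 10.91 to 9.92, 9.88 and 9.78. The serine synthesis genes Psph and Psat1 fell by 1.00 and 0.69.

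Amino acid carriers and secreted products of the pathway followed. Slc7a3, a carrier of cationic amino acids that is no member of the list and is among the 12 largest falls, went from 9.83, 9.69 and 9.66 to 7.89, 7.84 and 7.65 (difference -1.93, adjusted p = 5.64e-10), 1.52 under wild type. The glutamine carrier gene Slc1a5 fell by 0.95, the light chain gene Slc7a5 by 0.63 and Stc2, for stanniocalcin 2, by 1.43. Atf4 itself read 9.59, 9.78 and 9.80 before and 9.32, 9.32 and 9.36 after, a difference of -0.39 (adjusted p = 0.000968). The 3 members not called were the cystine carrier Slc7a11 (0.19, adjusted p = 0.202), Nupr1 (-0.16, adjusted p = 0.121) and Cebpb (0.08, adjusted p = 0.499). Against wild type 22 of the 35 were lower and 7 higher in treated cells, where 26.2% and 16.8% of all genes tested were.

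Aminoacyl-tRNA synthetases, which load amino acids onto tRNA, were added as a group after values were seen. Of 32 measured 18 were lower and 0 higher (56.2% called, against 16.5% of all genes tested), with a median of -0.28. With single arrays left out 14 to 18 were lower. Cars fell by 0.72, Lars by 0.66 and Tars by 0.64. In the unfolded protein response list, a neighbouring stress pathway, 7 of 25 were lower and 0 higher (28% called). That count was 3 without untreated replicate 2, without untreated replicate 3 or without treated replicate 3. Ero1a, an oxidase of protein folding, fell by 0.70 and Herpud1 by 0.35.

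**Figure D4:**
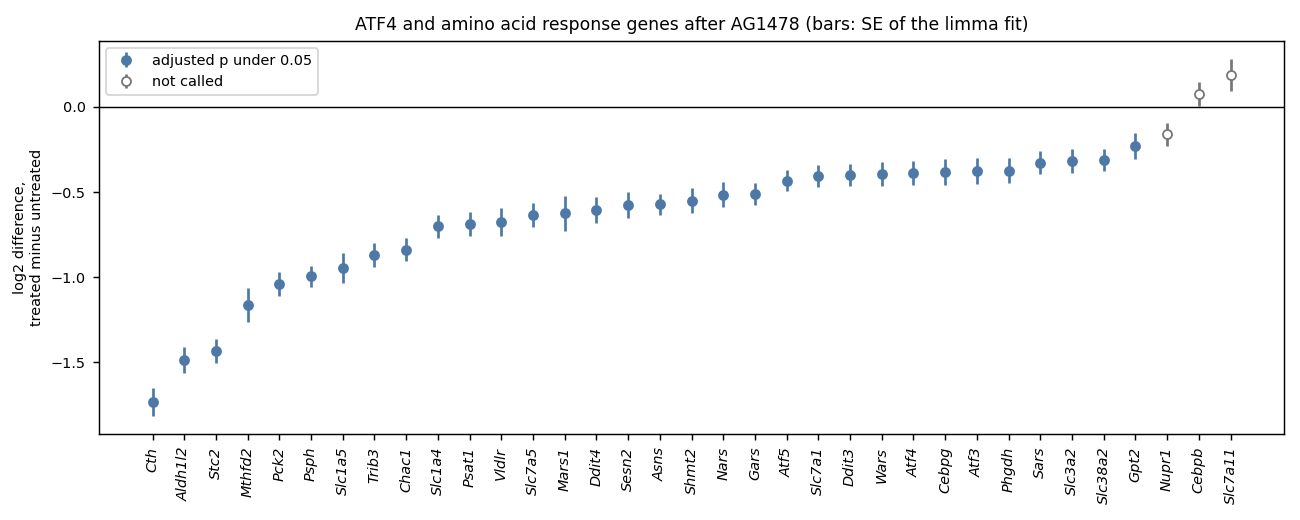
Log2 difference between treated and untreated MT-HGF keratinocytes (vertical axis) for the 35 measured genes of the ATF4 list (horizontal axis, ordered by difference), with the SE of the limma fit. The 32 filled points were called and all lie below 0, from Cth at -1.73 upward, and the 3 open points, Nupr1, Cebpb and Slc7a11, were not called.

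ATF4 pairs with C/EBP proteins on composite elements, and the core TGATGNAA was searched in the 250 bases before each start on both strands, a motif chosen after values were seen. The ATF4 list holds genes of this pathway, so its share of the core can exceed that of all genes whether or not members fell. The share in members that did not fall was not computed. The core was present in 6 of 26 fallen ATF4 list genes with a RefSeq promoter (23.1%) and in 321 of all 12496 (2.57%). The elements of 4 of them are shown to let their place and strand be compared, 5′ to 3′ along the gene, with the match in capitals. Chac1 lies on the plus strand at chr2:119351023-119351082, Atf3 on the minus strand at chr1:191183410-191183469, Asns on the minus strand at chr6:7693210-7693258 and Pck2 on the plus strand at chr14:55540137-55540196, all in GRCm38.p6. The match is on the gene's own strand in Asns and on the opposite strand in the other genes.
Chac1: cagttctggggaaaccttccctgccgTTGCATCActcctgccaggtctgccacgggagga
Atf3: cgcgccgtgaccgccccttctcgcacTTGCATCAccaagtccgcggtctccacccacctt
Asns: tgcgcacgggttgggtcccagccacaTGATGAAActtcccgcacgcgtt
Pck2: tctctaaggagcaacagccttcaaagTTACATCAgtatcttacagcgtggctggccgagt

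The matches began 193 bases before the start in Chac1, 110 in Atf3, 103 in Pck2 and 23 in Asns. Chac1, a glutathione-degrading enzyme gene, stood at 10.92, 10.97 and 10.96 untreated and 10.14, 9.99 and 10.21 treated. Pck2, for mitochondrial PEP carboxykinase, went from 10.03, 9.95 and 9.90 to 8.88, 8.95 and 8.93. Asns, for asparagine synthetase, went from 12.37, 12.36 and 12.33 to 11.79, 11.71 and 11.83, and Atf3 fell by 0.38. The groups did not overlap for any of these 4 genes, which were taken from those called lower. Of all 2615 called genes 2582 did not overlap, and of all genes tested 34.2% did not. Such a match describes letters in the window and is no evidence of a bound site.

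Basal layer genes had a median of -0.17. They fell more often than they rose, 10 against 3 of 22 (59.1% called, against 16.5% of all genes). These were mostly integrins and laminins that anchor cells to the basement membrane. Itga2 went from 11.12, 10.99 and 11.09 to 10.42, 10.28 and 10.31 (difference -0.73, adjusted p = 2.32e-06), and Itga3, Itga6 and Itgb1 fell by 0.56, 0.54 and 0.49. The laminin gene Lamb3 fell by 0.45. Basal keratins did not follow, since Krt15 rose by 0.80 and Krt14 differed by 0.12 (adjusted p = 0.216). Trp63, the p63 master regulator of basal cells, differed by 0.16 (adjusted p = 0.0985). Fras1, an extracellular matrix gene at background in untreated cells, rose at least 1.39-fold.

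Genes for proteases and invasion had 17 lower and 3 higher of 28 (71.4% called, against 16.5% of all genes). Their median was -0.32, and the count of 17 was the same with any 1 array left out. The serine protease Prss22 went from 10.43, 10.57 and 10.52 to a mean of 9.03 (SD 0.0519, n = 3; difference -1.47, adjusted p = 2.76e-08), and stayed above wild type. The stromelysin Mmp10 fell at least 1.8-fold to background, and the epithelial protease Tmprss11e fell by 0.84. Tmprss4 rose by 0.84, Mmp11 by 0.53 and the plasminogen activator Plat by 0.45. Of the simple epithelial keratins, Krt23 fell from 9.93, 10.21 and 10.35 to 8.57, 8.70 and 8.82, and Krt8 differed by 0.07 (adjusted p = 0.722).

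Inflammatory genes were more often lower, with 12 lower and 3 higher of 38 (39.5% called, against 16.5% of all genes tested). Il1a, the interleukin that keratinocytes store, went from 12.01, 12.13 and 12.07 to 11.20, 11.21 and 11.42 and stayed 1.87 above wild type. Tslp, a cytokine of allergic skin, fell by 0.88, the angiogenic factor Vegfa by 0.76 and the neutrophil chemokines Cxcl1, Cxcl3 and Cxcl5 by 0.73, 0.73 and 0.71. Beside Il18, Ccl2 rose by 0.46 and Csf1 by 0.38. Placental prolactin family genes, a group also added after values were seen, fell in 3 of 5 cases. Prl8a9 went from 9.33, 9.47 and 9.72 to 7.94, 7.89 and 7.27, and Prl7b1 fell at least 1.35-fold to background.

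Cell cycle genes showed small differences. Of 54 measured 19 were lower and 1 higher (37% called, against 16.5% of all genes tested), with a median of -0.18. The largest fall was 0.57 for the helicase gene Hells. The count lower was 12 without untreated replicate 2, 10 without untreated replicate 3 and 11 without treated replicate 3. Hells read 7.44 on treated replicate 3, beside 8.16 and 8.25 on the other treated arrays, and its call was lost without untreated replicate 3 (adjusted p = 0.0676). E2f8 fell by 0.50 and the licensing factor Cdt1 by 0.43, while E2f2 rose by 0.59. The proliferation marker Mki67 read 10.13, 10.15 and 10.23 untreated and 10.18, 10.23 and 10.27 treated, with overlapping groups (0.06, adjusted p = 0.645). In the MYC and ribosome biogenesis list 3 of 30 were lower and 0 higher. That is 10% lower, near the 9.91% of all genes tested. The count lower was 7 under the shift of arrays, 6 without treated replicate 2 and 2 without untreated replicate 3 or treated replicate 1. The polyamine enzyme gene Odc1 led the list, from 10.97, 11.09 and 11.23 to 10.12, 10.10 and 10.06.

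Of 35 FOXO and PI3K-AKT response genes 9 were higher and 4 lower (37.1% called, against 16.5% of all genes tested). Under the shift of arrays 5 were higher. Without untreated replicate 3 or treated replicate 1 or 2 the lower count was 2. Sesn1, a stress-induced sestrin, rose from 7.45, 7.45 and 7.51 to 8.00, 8.08 and 8.09, and the ubiquitin ligase Fbxo32 and the autophagy gene Gabarapl1 rose by 0.45 and 0.46. Irs2 and Pik3ip1 differed by -0.08 and 0.10, with adjusted p values of 0.631 and 0.332. Among 34 autophagy and lysosome genes 7 were higher and 2 lower (26.5% called). Under the shift of arrays 4 were higher, and 1 was lower without untreated replicate 2 or 3 or treated replicate 3. Psap, the saposin precursor, rose by 0.63, Map1lc3a by 0.58 and the kinase gene Ulk1 by 0.44. In the p53 and senescence list 5 of 24 were higher and 3 lower (33.3% called), with 5 lower under the shift of arrays. Trp53inp1 was up by 0.56, Cdkn2b up by 0.54 and Plk3 down by 0.57.

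Of 20 cholesterol synthesis genes 10 were lower and 1 higher (55% called, against 16.5% of all genes tested), with a median of -0.26. The count was 6 without untreated replicate 2, 5 without untreated replicate 3, 6 without treated replicate 3 and 16 under the shift of arrays. Hsd17b7 fell by 0.58, Dhcr7 by 0.52 and Msmo1 by 0.52, and all 3 remained above wild type, by 0.50, 0.67 and 1.49. Mvk, for mevalonate kinase, rose by 0.41. In fatty acid synthesis 4 of 21 were lower and 1 higher (23.8% called), with 2 higher without treated replicate 3. Acss2, which activates acetate, fell from 8.64, 8.15 and 8.18 to 7.77, 7.57 and 7.39, and the lipase gene Pnpla3 rose by 0.77.

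Arachidonate and retinoid genes had large differences in both directions. Among 21 prostaglandin and arachidonate genes 6 were lower and 3 higher (42.9% called, against 16.5% of all genes tested). The phospholipase gene Pla2g4e went from 9.86, 10.01 and 10.15 to 8.97, 9.02 and 8.91 (difference -1.04, adjusted p = 1.8e-06), whereas Pla2g2f rose by 1.18 and the prostaglandin-degrading enzyme Hpgd by 1.00. Of 17 retinoid genes 4 were lower and 3 higher (41.2% called). Dhrs9, a retinol dehydrogenase gene, fell by 1.11, the carrier Crabp2 by 0.56, and Rbp2 rose by 0.91. Of 14 genes of the AHR and xenobiotic list 4 were higher and 3 lower (50% called). The cytochrome P450 genes Cyp2b19 (1.34), Cyp1b1 (0.97) and Cyp2s1 (0.59) were among the higher. Cyp1b1 stood at 8.86, 8.97 and 9.15 before and 9.95, 10.07 and 9.89 after, beside 10.22 in wild type.

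Interferon response genes had 4 higher and 1 lower of 36 (13.9% called, under the 16.5% of all genes tested), with 15 at background in treated cells. The counts were 1 higher under the shift of arrays, 2 higher without untreated replicate 3 or treated replicate 1, and 0 lower without untreated replicate 2 or 3 or treated replicate 1 or 2. TGF-beta and mesenchymal genes had 2 higher and 7 lower of 33 (27.3% called), with 4 higher without treated replicate 2 and 1 under the shift of arrays. The list had the integrin gene Itgb6 up by 0.56, the matrix gene Tnc down by 0.56 and the inhibitor Smad7 down by 0.51. The serum, SRF and YAP list had 3 higher and 6 lower of 31 (29% called), and 3 lower without untreated replicate 3. Its largest rise was 0.52 for endothelin 1 (Edn1). Hypoxia and glycolysis genes had 1 higher and 6 lower of 32 (21.9% called), with Hk2 down by 0.68 and Car12 up by 0.48. NRF2 and glutathione genes had 3 higher and 6 lower of 28 (32.1% called), with Akr1b8 down by 0.54 and Nqo1 by 0.53. Claudins and tight junction genes had 2 lower of 15 (13.3%, against 9.91% of all genes tested), Cldn12 and Tjp1. Their count lower was 4 without treated replicate 1 or under the shift of arrays. The chemosensory receptors themselves had 4 higher and 0 lower of 161, with 7 higher without untreated replicate 1 and 0 without untreated replicate 2 or 3.

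**Figure D5:**
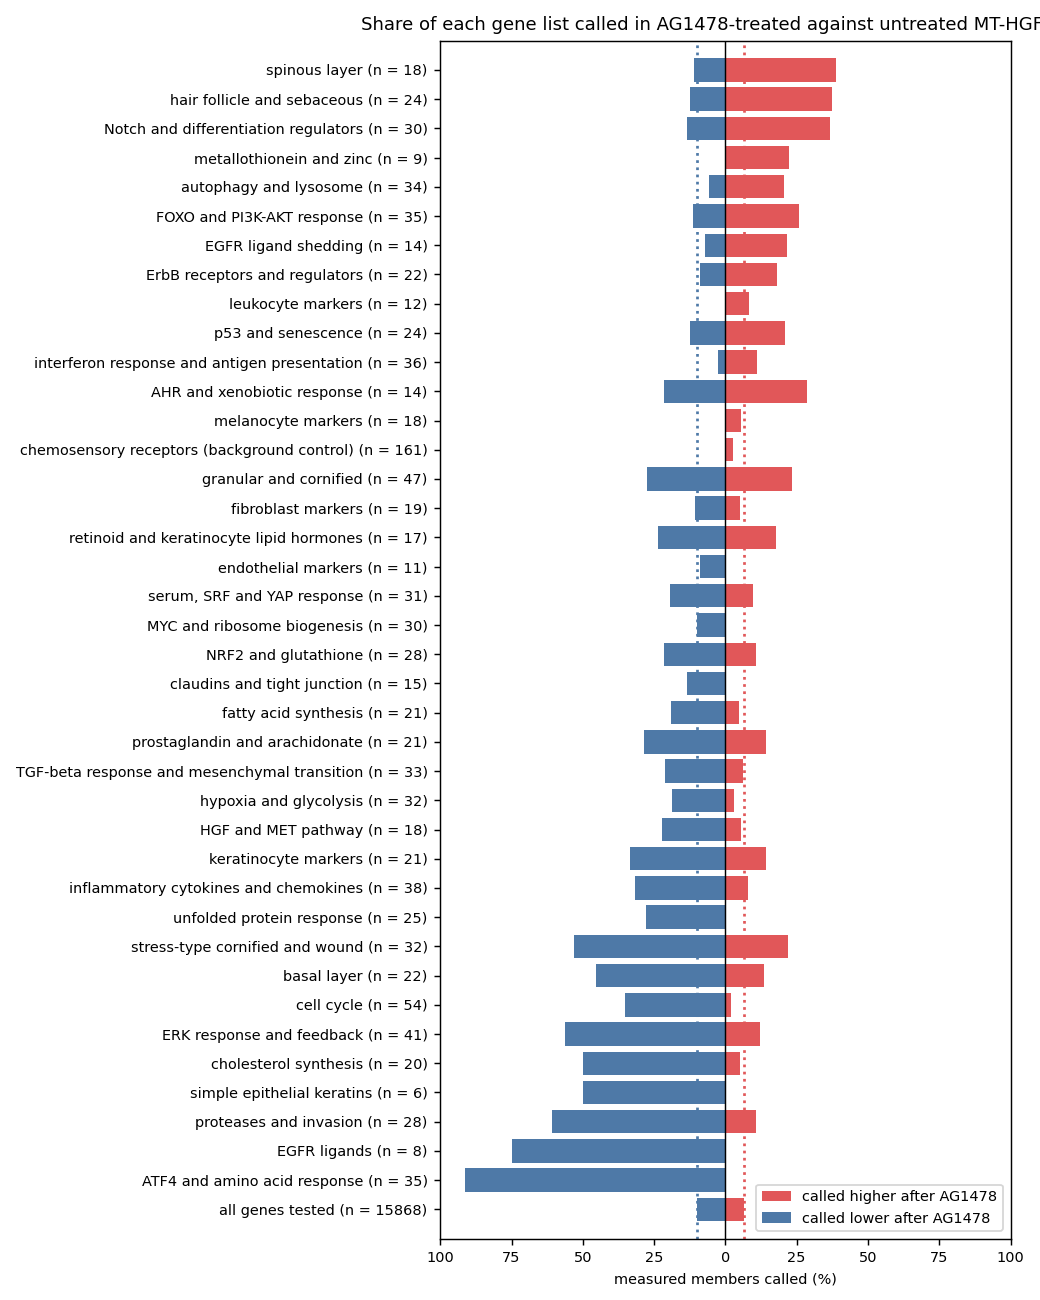
Share of measured members called higher (right) and lower (left) after AG1478 for 38 gene lists and the chemosensory receptors that served as background control. Shares are in percent (horizontal axis), with the number measured after each name. The bottom bar and the dotted lines give the shares over all 15868 genes, 6.57% higher and 9.91% lower, and the ATF4 list and the EGFR ligands reach furthest to the left.

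Set against wild-type keratinocytes, a comparison that uses the same treated arrays, 6814 genes were called in AG1478-treated MT-HGF cells (42.9%), 2663 higher (16.8%) and 4151 lower (26.2%). Of the 12 largest AG1478 falls 8 were called higher than wild type, 3 were below it (Slc7a3, Cth and P2rx3) and Ereg was not called either way. Car2 and Prl7b1, among those 8, lay at background on all 3 treated arrays, and Car2 also on all 3 wild-type arrays. Their calls against wild type thus show no remaining expression. P2rx3, an ATP-gated channel gene, fell at least 1.87-fold, and its other transcript cluster differed by -0.07. ERK list genes were split against wild type, with 14 higher and 12 lower. In the granular and cornified list 44 of 47 were higher than wild type and 0 lower, and in the cholesterol list 20 of 20 were higher. Of the EGFR ligands 4 were higher and 1 was lower, and Ereg and Btc were not called at 0.05 and 0.13 (adjusted p = 0.74 and 0.12, limma). Btc lay at background on all treated and wild-type arrays, so its lack of a call does not show equal expression.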

How the data were processed

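Expression in 12 keratinocyte samples, 3 per group, was profiled on the Affymetrix platform Mouse Gene 1.0 ST. The log2 values are those the authors deposited as a series table, made with RMA per the submitters' processing notes, with no version given. Whether the 12 arrays went through the same RMA run is not stated in the sources used here, and array data have no read depth, so the number of arrays limits the precision. Of 35511 transcript clusters 21789 named 1 gene symbol in the platform annotation, 1621 several and 12101 were not listed. A cluster was kept if 3 or more of the 12 arrays had it over their own 30th percentile. For 815 genes with several kept clusters the one with the highest mean over the 12 arrays was used, which left 15868 genes. A group-means model over all 12 arrays (limma 3.58.1, R 4.3.3, eBayes, 8 residual degrees of freedom) was tested two-sided with Benjamini-Hochberg adjustment over all genes, and calls were made at 0.05. The script was first tested on simulated data. Named genes are the 12 largest called rises and falls whose arrays do not overlap, up to 5 called rises and 5 called falls of each list, members not called whose value is given as such, and a fixed set of genes. Outside this rule, Asns, Atf3, Atf4, Chac1, Nrg1, Psat1, Psph and Slc1a5 were named after their values were seen. A fold is given as a bound where the lower group is at or below the background on all 3 arrays. The members and lists were chosen with earlier results of these data known, so a list's direction is no independent evidence. Promoters came from the RefSeq table of GRCm38.p6 and were matched by symbol for 12496 tested genes. Tables and figures were made with Python 3.11.15, pandas 2.3.3 and matplotlib 3.10.9. Same-numbered untreated and treated arrays did not deviate together, so replicate numbers were not used as pairs.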

Additional observations from a re-analysis of the deposited data

How the results depend on the processing

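The count of genes higher after AG1478 (1043) was 446 with arrays shifted to one median of the chemosensory receptor genes and 1795 with array weights, which gave treated replicate 3 a weight of 0.272. The count lower (1572) stayed within 1.5 times under every setting run. With each of the 6 arrays left out in turn, counts ranged from 683 to 912 higher and from 1066 to 1553 lower, and for changes of at least 2-fold from 53 to 71 higher and from 44 to 53 lower. Against wild type, 4367 genes were higher with array weights in place of 2663, and the causes of these shifts were not tested. The replicate numbers did not pair the samples, with correlations of deviations of -0.085, 0.0517 and -0.266 for the same-numbered arrays, and a fit with the number as a block gave 1086 higher and 1622 lower. The median difference over all genes was 0.02, and -0.08 under the shift. Of 270 named genes 257 were called. Under every setting in which they were tested 205 of these kept direction and call, and 0 reversed. The stricter filter on low values tested 246 of the 257.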

Other observations

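A group of 49 small nucleolar RNA genes was collected after values were seen. After AG1478 1 was higher and 1 lower (4.08% called, against 16.5% of all genes tested), and 4 were lower without treated replicate 1. Snora44 read 7.74, 7.83 and 7.73 on the untreated arrays and 8.02, 9.78 and 9.98 on the treated arrays. The treated arrays were thus far apart among themselves, and the call (adjusted p = 0.00475, limma) was lost with array weights (adjusted p = 0.104).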
